A study of Mus musculus with 5 samples.

Results

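The genes of the proteasome, the barrel-shaped protease that degrades ubiquitin-tagged proteins, were followed in mouse hepatocytes before and after partial hepatectomy (PHx), in which much of the liver is cut away and the rest regrows. Members were all gene symbols in the feature lists that begin with Psma, Psmb, Psmc, Psmd, Psme, Psmf or Psmg, which gave 50 of 31053 listed genes. Of these, 46 passed a filter of a mean of at least 5 counts per 1000000 UMIs (CPM) over the 5 libraries, as did 8674 genes in all. The 31 core members are the 7 alpha and 7 beta subunits of the 20S barrel and 17 subunits of the 19S cap, and the 3 interferon-inducible subunits Psmb8, Psmb9 and Psmb10 were kept apart. Psma8 and Psmb11 (the testis and thymus forms of a 20S subunit), Psme2b (a near-identical copy of Psme2) and Psmc3ip, a recombination cofactor that shares only the prefix, did not pass the filter.

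Liver cells from C57BL/6J mice had been profiled with a droplet-based 3′ single-cell kit after perfusion and removal of dead cells, 1 library per group: mice at postnatal day 14 (P14), an adult control, and adults 24 h, 48 h and 96 h after PHx, operated on at 8 weeks of age. One protocol text counts the adult control among the operated mice, whereas its title, source and treatment fields do not, and it was taken as the control. Sex and number of animals per library are not given in the labels. With 1 library per group no difference has a replicate check and no p-value is given. Intervals below are 95% exact intervals that cover counting error only, and all comparisons with the adult control share that library. A code in the sample descriptions is the same in P14 and the 3 PHx libraries and differs in the adult control, so the control and whatever the code marks cannot be told apart, whereas 48 h over 24 h and 96 h over 48 h lie within 1 code.

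Hepatocytes were barcodes with at least 5000 unique molecular identifiers (UMIs), 10% to 30% mitochondrial UMIs, and at least 1% of UMIs from Alb, Apoa1 and Ttr, which encode secreted liver proteins. The rule found 2106 hepatocytes in P14, 925 in the adult control, 1170 after 24 h, 719 after 48 h and 771 after 96 h, 5691 in all, and 3 of the 5688 distinct barcodes occurred in more than 1 library. Median depth was between 18527 and 38922.5 UMIs and the median mitochondrial share between 20.6% and 26.0%. Between 2 and 9 barcodes per library failed on the 1% limit alone, and 420 to 1703 of at least 5000 UMIs lay above 30% mitochondrial UMIs. All 10 hepatocyte markers outside the rule had UMIs in every library and summed to 40824 to 81003 CPM, against 25.2 to 119 CPM for 10 leukocyte markers. Free RNA, read from the plateau of empty droplets in each library's barcode-rank curve, amounted to 0.818% to 7.17% of a median hepatocyte's UMIs and was highest in the adult control.

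As background, the 20S barrel cuts proteins in a closed chamber lined by its beta subunits, and the alpha subunits form the gate. The 19S cap binds ubiquitin chains, removes them and unfolds the substrate with a ring of ATPases. In many cells a shortage of proteasome activity releases the transcription factor Nrf1 (Nfe2l1), which raises most subunit genes together. Hepatocytes grow and divide after PHx and keep up the liver's protein synthesis as they do so. Interferon exchanges the 3 catalytic beta subunits for their immune counterparts, which favours peptides for antigen presentation.

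To show the regions from which the extremes of the family are transcribed, stretches upstream of the transcription start are printed from RefSeq (GRCm38.p6), 5′ to 3′ on the gene's strand. Bases that lie inside the GENCODE gene were left off, so the stretches of Psmb3 and Psmc6 end before the RefSeq start. Psmb3 and Psma7 had the largest ratios of the core genes after 24 h and 48 h, Psmb6 and Psmc6 carry the same motif but were among the 3 highest and the 3 lowest core genes in the P14 comparison, and Psmd2 stayed flat. These stretches lie at chr11:97703184-97703398 (plus strand), chr2:180042465-180042714 (minus strand), chr11:70525107-70525356 (plus strand), chr14:45329574-45329787 (plus strand) and chr16:20651402-20651651 (plus strand). Capitals mark matches on either strand to TGACNNNGC (the core of the site bound by Nrf1 with small Maf proteins), CCAAT (the site of NF-Y) and the interferon regulatory factor motif, 2 copies of GAAA with 2 bases between them.
Psmb3: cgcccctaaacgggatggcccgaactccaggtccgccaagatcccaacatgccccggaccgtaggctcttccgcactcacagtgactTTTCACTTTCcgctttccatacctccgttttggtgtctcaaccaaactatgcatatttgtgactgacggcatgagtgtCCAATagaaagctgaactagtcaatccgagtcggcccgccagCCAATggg
Psma7: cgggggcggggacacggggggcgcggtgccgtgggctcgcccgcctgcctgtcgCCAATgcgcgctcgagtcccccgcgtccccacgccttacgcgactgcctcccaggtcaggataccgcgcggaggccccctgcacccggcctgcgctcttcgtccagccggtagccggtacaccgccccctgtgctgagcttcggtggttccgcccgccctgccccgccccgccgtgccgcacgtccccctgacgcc
Psmb6: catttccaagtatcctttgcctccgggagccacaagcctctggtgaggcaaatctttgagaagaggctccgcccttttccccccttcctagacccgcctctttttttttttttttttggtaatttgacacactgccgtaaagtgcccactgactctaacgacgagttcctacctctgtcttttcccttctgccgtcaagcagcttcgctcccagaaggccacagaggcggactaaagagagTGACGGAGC
Psmc6: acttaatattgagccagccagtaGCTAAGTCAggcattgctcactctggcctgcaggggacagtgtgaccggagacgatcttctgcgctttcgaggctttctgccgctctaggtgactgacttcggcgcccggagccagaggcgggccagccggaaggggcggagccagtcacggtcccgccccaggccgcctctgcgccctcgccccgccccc
Psmd2: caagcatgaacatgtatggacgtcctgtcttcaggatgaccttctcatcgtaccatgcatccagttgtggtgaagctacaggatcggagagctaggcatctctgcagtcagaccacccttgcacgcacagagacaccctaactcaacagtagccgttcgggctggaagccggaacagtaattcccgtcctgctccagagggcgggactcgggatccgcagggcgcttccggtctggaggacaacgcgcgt

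Windows of 250 bases before the start were at hand for 42 members, 25 of them core. TGACNNNGC was found in 4 of these 25 core genes (Psmb5, Psmb6, Psmc6 and Psmd12) and in 3112 of all 27025 genes with a window. The log2 ratios of these 4 core genes in P14 were 0.89, 1.13, -0.42 and 0.68 in the same order. Counted from the RefSeq start and not from the end of the printed stretch, the match in Psmb6 began 9 bases before the start and in Psmb5 47 bases before it, whereas those of Psmc6 and Psmd12 began 227 and 247 bases before it. CCAAT was found in 10 of the 25 core genes and in 10133 of the 27025 genes with a window. Psmb3 held 2 copies, at 85 and 43 bases before the start. The interferon regulatory factor motif was found in 2 of the 25 core genes, Psmb3 and Psmd4, and in 936 of the 27025 genes with a window. Some windows lie partly or wholly inside a GENCODE gene that starts farther upstream. They lie wholly inside for Psmd13, Psmb11 and the immune subunits Psmb8 and Psmb9, among others. Psmd13 was still counted among the 25 core genes, without a match to any of these motifs. Nothing is read from the windows of Psmb8 and Psmb9. The motifs do not overlap in the printed stretches. A match is a description of the letters and says nothing about binding.

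Core subunit genes were higher in all 3 PHx libraries than in the adult control. Their summed level was 2236 CPM (2211 to 2262) in the adult control, 3292 CPM (3267 to 3317) after 24 h, 3486 CPM (3461 to 3511) after 48 h and 3236 CPM (3206 to 3267) after 96 h. P14 lay between them at 2724 CPM (2711 to 2736). By the library total, the adult control was thus the lowest of the 5 libraries and the 3 PHx libraries were the highest. The place of P14 depended on scaling. With TMM scaling in place of the library total, the median core log2 ratios to the control were 0.56, 0.74 and 0.47 after PHx and 0.61 in P14. P14 then lay above 24 h and 96 h. As ratios to the adult control the sums were 1.47-fold (1.45 to 1.49), 1.56-fold (1.54 to 1.58) and 1.45-fold (1.43 to 1.47) after PHx and 1.22-fold (1.20 to 1.23) in P14.

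**Figure D1:**
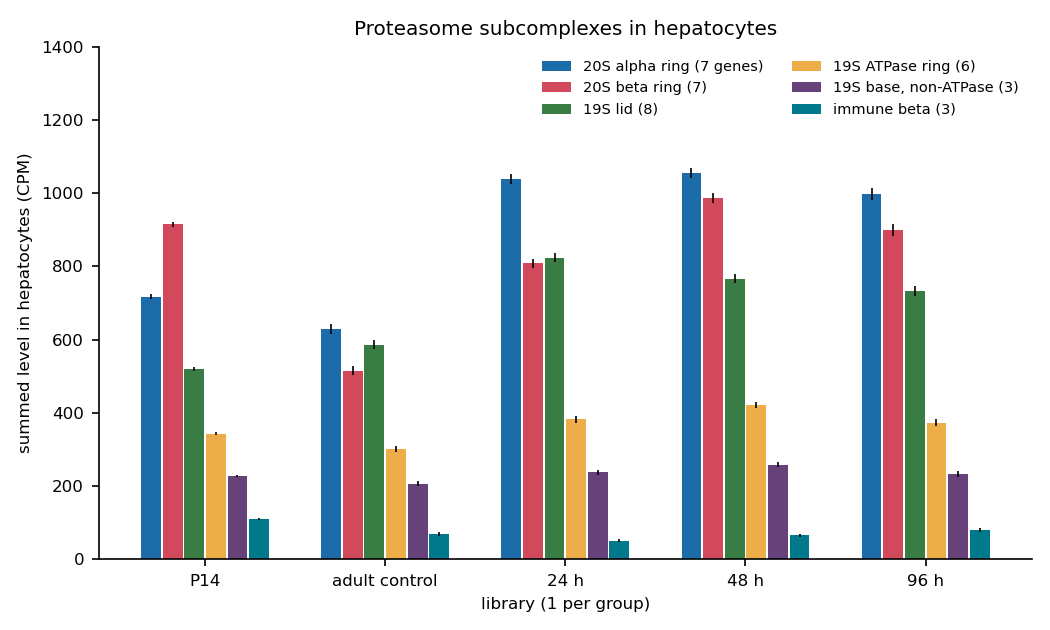
Summed CPM of the 20S rings, the parts of the 19S cap and the 3 immune subunits in hepatocytes of each library; bars start at 0 and error bars are 95% exact Poisson intervals. Bars of 1 colour are to be compared across libraries: the 20S rings were lowest in the adult control, and the immune subunits were lowest after 24 h (50.5 CPM).

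Per gene, the median core log2 ratio was 0.54 after 24 h, 0.65 after 48 h and 0.50 after 96 h, with medians over all 8674 genes of 0.00, -0.07 and 0.05. Log2 ratios are of CPM plus 1, which understates the ratio of low genes. At 24 h, 29 of 31 core genes were above 0 and 11 were at least 1.5-fold higher, a size that 18.3% of all genes reached. None of the 31 was at least 1.5-fold lower, against 16.4% of all genes. At 48 h, 18 of 31 were at least 1.5-fold higher (16.6% of all genes) and 0 lower (18.7%). At 96 h the counts were 13 higher (12.8% of all genes) and 0 lower (6.13%). At a threshold of 2-fold, 2, 4 and 1 of 31 core genes were higher after 24 h, 48 h and 96 h and 2 in P14, against 7.77%, 7.44%, 4.31% and 6.96% of all genes. Across the 4 adult libraries the adult control was lowest for 28 of 31 core genes, as it was for 34.2% of all genes, and Psmc1, Psmd2 and Psmd3 were the exceptions. The highest of the 4 was the 48 h library for 17 core genes, 24 h for 8, 96 h for 5 and the adult control for 1. Over all 8674 genes the same counts were 1441, 2307, 2135 and 2791.

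Differences among the PHx libraries were small. From 24 h to 48 h the core median was 0.10 and 0 of 31 genes passed 1.5-fold in either direction (4.57% of all genes higher, 6.51% lower). From 48 h to 96 h it was -0.10, again with 0 of 31 past 1.5-fold (13.6% higher, 7.22% lower). The medians over all genes were -0.07 and 0.11. Scaling by TMM in place of the library total changed the split of all genes from 396 higher and 565 lower to 493 and 438 for the first of these, and from 1181 and 626 to 833 and 837 for the other, with 0 core genes past the fold under each. Core medians under TMM were 0.16 and -0.22, beside 0.00 and 0.00 over all genes. From 48 h to 96 h, 2 of 31 core genes were then above 0, against 10 by the library total. For 48 h over 24 h the counts were 25 and 22.

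**Figure D2:**
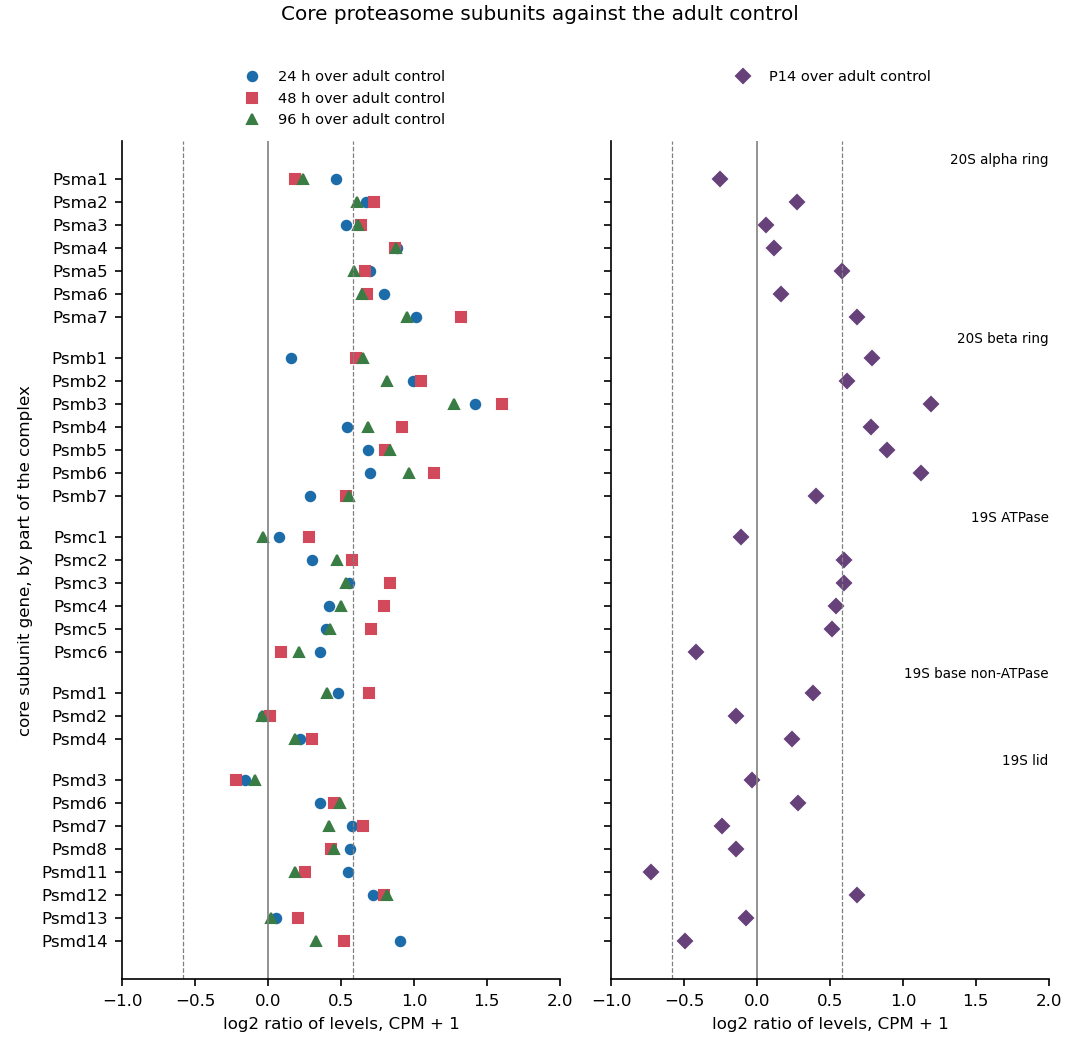
Log2 ratio of CPM + 1 for each of the 31 core subunits against the adult control, with the 3 PHx libraries on the left and P14 on the right; dashed lines mark 1.5-fold. Psmb3 was farthest to the right in every comparison, and Psmd2 and Psmd3 stayed between -0.22 and 0.01.

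The level of the same genes in other barcodes bears on these ratios. Free RNA held 4462 to 6591 CPM of core transcripts, more than hepatocytes of any library, and subtracting it left core medians of 0.60, 0.78 and 0.64 after 24 h, 48 h and 96 h. Barcodes under 5% mitochondrial UMIs that otherwise met the rule and had under 3 leukocyte and under 3 endothelial markers went the other way. P14 held 93 of them, the adult control 134, and the PHx libraries 306, 154 and 603, with 6771 to 8653 CPM of core transcripts and the highest level in the adult control. In them the core medians were -0.21, -0.32 and -0.24 after PHx and -0.46 in P14. Medians over all genes were -0.60, -0.56 and -0.42 after PHx and -0.26 in P14. The core median thus lay above that of all genes after PHx and below it in P14. The direction of the core median in the hepatocytes of the rule did not hold in these barcodes, though single genes differed. Psmb3 had 434 CPM in the adult control, 364, 306 and 407 CPM after PHx and 342 CPM in P14, so it turned. Psma7 kept its direction, with 366 CPM in the adult control, 423, 409 and 451 CPM after PHx and 399 CPM in P14. The median depth of these barcodes, 6076 to 9718 UMIs, was lower, and their median share of Alb, Apoa1 and Ttr, 1.17% to 3.39%, lay nearer to the 1% limit. Malat1, a nuclear RNA, stood at 359 to 1683 CPM in them and at 1087 to 3655 CPM in the hepatocytes of the rule. Heat shock and dissociation genes were also unequal: Hspa1b, an inducible chaperone, stood at 52.3 CPM in the adult control, 10.4, 5.28 and 19.5 CPM after PHx and 1.72 CPM in P14. Over that list, 13 of 15 genes passed the filter, with median log2 ratios of -0.41, -0.52 and -0.47 after PHx and -1.29 in P14. Hspa1b was the lowest of them after 24 h, after 48 h and in P14. At each PHx time 3 of the 13 were at least 1.5-fold higher, and 5, 6 and 5 were lower, as were 9 in P14 with 0 higher. Of all genes, 18.3%, 16.6% and 12.8% were higher after PHx and 13.3% in P14. The shares lower were 16.4%, 18.7% and 6.13% after PHx and 30.8% in P14. Hsp90aa1, a chaperone, was at 0.71 after 24 h, and Jun, an early response factor, at 1.06 after 48 h and 1.19 after 96 h. Neutrophil markers in the hepatocytes also moved with the libraries. The 5 markers summed to 10.7 CPM in the adult control, 101, 189 and 21.2 CPM after PHx and 27.2 CPM in P14, with Ly6g at 0 in the adult control and after 96 h, so they peaked after 48 h as the core sum did. In leukocyte-marker barcodes they summed to 3999 to 82912 CPM, and the core genes there to 4437 to 6361 CPM. The part of the heat shock and neutrophil signals in the proteasome result was not tested.

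The alpha ring, which gates the barrel, summed to 628 CPM (615 to 642) in the adult control, 1039 CPM after 24 h, 1055 CPM after 48 h, 999 CPM after 96 h and 718 CPM in P14. That is 1.65-fold (1.61 to 1.70), 1.68-fold (1.64 to 1.72), 1.59-fold (1.55 to 1.63) and 1.14-fold (1.12 to 1.17) of the control. Psma7, the alpha subunit with the largest ratios, stood at 79.1 CPM in the adult control, 161 CPM after 24 h, 200 CPM after 48 h, 154 CPM after 96 h and 128 CPM in P14. Its ratio was 2.03-fold (1.89 to 2.18) after 24 h and 2.52-fold (2.36 to 2.70) after 48 h. The other 6 alpha genes had log2 ratios of 0.47 to 0.88 after 24 h and 0.18 to 0.87 after 48 h, with Psma1 lowest at each time. Psma4 stood at 120 CPM in the adult control and 130 CPM in P14, and at 222, 221 and 222 CPM after PHx, level across the 3 times.

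The beta ring, which carries the proteolytic sites, was the part farthest above the control after 48 h and 96 h and in P14, with the alpha ring ahead of it after 24 h. It summed to 515 CPM (503 to 527) in the adult control, 809 CPM after 24 h, 986 CPM after 48 h, 900 CPM after 96 h and 915 CPM in P14. The ratios were 1.57-fold (1.53 to 1.62), 1.92-fold (1.86 to 1.97), 1.75-fold (1.70 to 1.80) and 1.78-fold (1.73 to 1.82). Psmb3, a structural beta subunit without catalytic activity, had 52.3 CPM (48.5 to 56.4) in the adult control, 142 CPM after 24 h, 161 CPM after 48 h, 128 CPM after 96 h and 121 CPM in P14. Every other library was thus more than 2-fold above the control, at 2.71-fold (2.49 to 2.95), 3.08-fold (2.83 to 3.34), 2.44-fold (2.24 to 2.67) and 2.31-fold (2.14 to 2.50). Psmb2, a second structural subunit, was 2.01-fold (1.85 to 2.19), 2.09-fold (1.92 to 2.27) and 1.77-fold (1.62 to 1.94) of its control level of 56.0 CPM after PHx. Psmb1, also structural, had 111 CPM in the adult control, 124, 169 and 175 CPM after PHx and 193 CPM in P14. Its step between 24 h and 48 h was 1.37-fold (1.30 to 1.44), so it was close to the control at 24 h and well above it later. Psmb4, a structural subunit as well, had 97.2 CPM in the adult control, 142, 184 and 157 CPM after PHx and 168 CPM in P14.

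The 3 constitutive catalytic subunits were higher in every other library than in the adult control. Psmb5, the chymotrypsin-like site, stood at 42.9 CPM in the adult control, 69.6, 75.4 and 77.4 CPM after 24 h, 48 h and 96 h, and 80.5 CPM in P14. Psmb6, the caspase-like site, had 69.6 CPM in the adult control, 113, 154 and 137 CPM after PHx and 153 CPM in P14. Psmb7, the trypsin-like site, had 86.1 CPM in the adult control, 105, 125 and 127 CPM after PHx and 114 CPM in P14. For all 3 genes the adult control was lowest and its interval overlapped none of the others.

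The 19S cap differed less than the barrel, whose transcripts are mostly shorter (lengths are given below). All 17 cap genes together were 1.32-fold (1.29 to 1.35), 1.32-fold (1.30 to 1.35) and 1.22-fold (1.20 to 1.25) of the control after PHx, against 1.62-fold (1.59 to 1.65), 1.79-fold (1.75 to 1.82) and 1.66-fold (1.63 to 1.69) for the 14 barrel genes. In P14 the cap stood at 0.998-fold (0.980 to 1.02) and the barrel at 1.43-fold (1.40 to 1.45), and TMM scaling, which raised all P14 ratios alike, put the cap at 1.26-fold. These intervals do not overlap between barrel and cap in any of the 4 comparisons. The 6 ATPases Psmc1 to Psmc6, which unfold the substrate, were 1.27-fold, 1.40-fold and 1.24-fold of the control after PHx. Psmc1 was among the flattest, with 69.5 CPM in the adult control, 73.1, 84.4 and 67.7 CPM after PHx and 64.1 CPM in P14. Among the 4 adult libraries Psmc2, Psmc3, Psmc4 and Psmc5 were each highest after 48 h, with log2 ratios of 0.58 to 0.84 there. Psmc6 was highest after 24 h instead, with 88.9 CPM in the adult control, 114, 94.5 and 103 CPM after PHx and 66.2 CPM in P14.

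Of the non-ATPase subunits of the base, Psmd2, a large scaffold that receives ubiquitin-like carrier proteins, did not differ beyond counting error from the control after PHx. It stood at 84.7 CPM in the adult control and 82.8, 85.3 and 82.3 CPM after PHx, with ratios of 0.978-fold (0.905 to 1.06), 1.01-fold (0.934 to 1.09) and 0.972-fold (0.893 to 1.06). In P14 Psmd2 was lower, at 76.5 CPM (74.4 to 78.7). It was not flat in the barcodes under 5% mitochondrial UMIs. There it had 210 CPM in the adult control, 75.1, 92.7 and 90.2 CPM after PHx and 104 CPM in P14. Psmd4, a ubiquitin receptor, was 1.17-fold (1.07 to 1.27), 1.24-fold (1.14 to 1.35) and 1.14-fold (1.04 to 1.25) of its control level of 65.9 CPM. Psmd1, the other large scaffold of the base, had 55.6 CPM in the adult control, 78.0, 90.7 and 74.0 CPM after PHx and 73.0 CPM in P14. In the lid, Psmd3 was the only core gene below the control at each time, at 54.5 CPM in the adult control and 48.6, 46.6 and 51.0 CPM after PHx. Its 96 h interval, 0.842 to 1.04, included 1. Psmd14, the metalloprotease that cuts ubiquitin chains off the substrate, was highest early: 50.4 CPM in the adult control, 95.2 CPM after 24 h, 72.6 CPM after 48 h, 63.5 CPM after 96 h and 35.5 CPM in P14. The step from 24 h to 48 h was 0.763-fold (0.712 to 0.817), the lowest ratio of any core gene between those libraries. Psmd11, a lid scaffold subunit, followed the same order, at 137 CPM in the adult control, 201, 163 and 155 CPM after PHx and 82.1 CPM in P14. Psmd13, another lid scaffold, had 62.9 CPM in the adult control, 65.4, 72.7 and 63.6 CPM after PHx and 59.6 CPM in P14. Psmd12, a further scaffold, was above the control everywhere, with 33.8 CPM in the adult control, 56.4, 59.4 and 60.3 CPM after PHx and 54.8 CPM in P14. Psmd7, the inactive partner of Psmd14, had 73.4 CPM in the adult control, 109.96, 116 and 98.2 CPM after PHx and 62.0 CPM in P14. Psmd8 had 126 CPM in the adult control, 186, 170 and 172 CPM after PHx and 114 CPM in P14, so that Psmd7, Psmd8, Psmd11, Psmd13 and Psmd14 were each lowest in P14, although Psmd7, Psmd8 and Psmd13 lay above the control in P14 under TMM. Psmd6 had log2 ratios of 0.36, 0.45 and 0.49 after PHx and 0.28 in P14.

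In P14 the beta ring was above the control and the lid below it. The core median was 0.28 there, with a median of -0.26 over all genes. Of the 31 core genes, 10 were at least 1.5-fold higher (13.3% of all genes) and 1, Psmd11, at least 1.5-fold lower (30.8% of all genes). The lid summed to 0.888-fold (0.866 to 0.910) of the control, Psmd11 to 0.601-fold (0.570 to 0.634), Psmd14 to 0.705-fold (0.647 to 0.770) and the ATPase Psmc6 to 0.744-fold (0.698 to 0.794). This comparison depended on scaling. TMM moved the median of all genes by 0.32, changed the split of all genes from 1157 higher and 2669 lower to 2010 and 1411, and gave 17 core genes higher and 0 lower, a core median of 0.61 and a lid sum of 1.12-fold. Under either scaling the core median lay above that of all genes. Psmd11, Psmd14 and Psmc6 remained below the control under TMM and under median-of-ratios factors, whereas Psma1, Psmc1, Psmd2, Psmd3, Psmd7, Psmd8 and Psmd13 changed sign.

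Transcript length moved with the ratios. Among the 8559 compared genes with a length in GENCODE M21 (longest protein-coding transcript), the shortest group, up to 2289 bases, had median log2 ratios of 0.12, 0.13 and 0.20 after PHx and -0.05 in P14, and the longest group, over 4085 bases, -0.07, -0.20, -0.03 and -0.36. The shortest group held 26 of the 31 core genes, whose medians were 0.55, 0.66 and 0.52 after PHx and 0.46 in P14. Across the 31 core genes, which share libraries and are not independent, Spearman's rho between length and log2 ratio was -0.53 after 24 h, -0.59 after 48 h, -0.63 after 96 h and -0.52 in P14. Over all genes with a length it was -0.14, -0.23, -0.23 and -0.18. Cytosolic ribosomal protein genes, also short, had medians of 0.02, 0.34 and 0.14 after PHx and -0.02 in P14 over the 78 of 81 that passed the filter. Barrel and cap also differed in length. Apart from Psma2, Psma3 and Psmb1 (2911, 2846 and 1970 bases), core barrel genes had at most 1239 bases. All core cap genes had at least 1316 bases. The part of length in the proteasome result, and in the contrast of barrel and cap, was not tested.

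Core UMIs were also counted per cell. At so few UMIs per cell, counting error alone gives a wide spread. The counts below therefore cannot show whether all cells shifted or a part of them. When each hepatocyte was thinned to 5000 UMIs, the median core UMIs per cell were 8 in the adult control (5th to 95th percentile 4 to 14), 12 after 24 h (6 to 20), 13 after 48 h (6 to 22), 11 after 96 h (5 to 20) and 10 in P14 (4 to 18). Before thinning the medians were 30, 45, 84, 48 and 79. Of 5691 hepatocytes, 1 after 96 h had no core UMI at that depth.

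**Figure D3:**
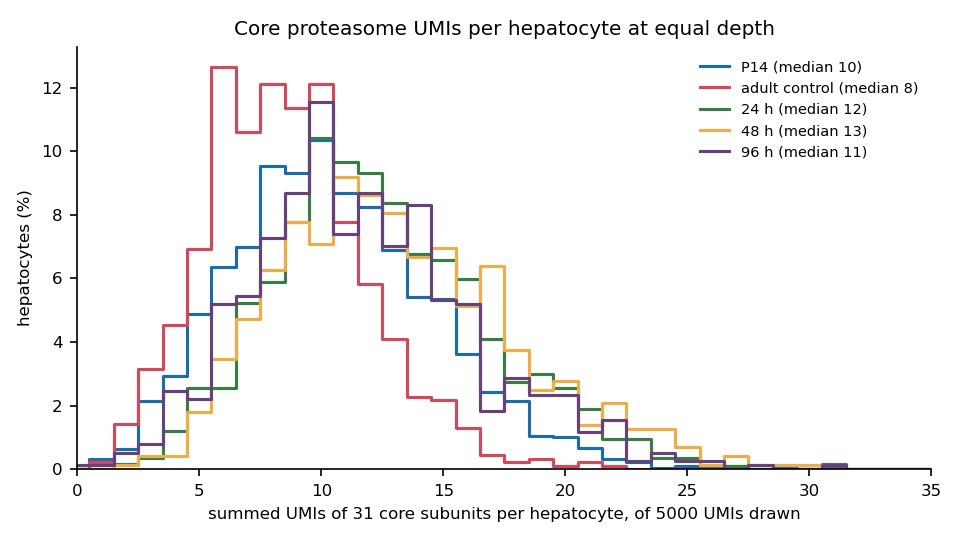
Share of hepatocytes (%) with a given number of summed core UMIs when every cell was thinned to 5000 UMIs, 1 line per library. The adult control (median 8) lies to the left, P14 (10) between, and the 3 PHx libraries (11 to 13) to the right, with wide overlap.

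The immune subunits did not follow the constitutive ones. Together Psmb8, Psmb9 and Psmb10 summed to 68.5 CPM (64.1 to 73.1) in the adult control, 50.5 CPM (47.4 to 53.7) after 24 h, 65.1 CPM (61.7 to 68.7) after 48 h, 79.9 CPM (75.2 to 84.8) after 96 h and 110 CPM (107 to 112) in P14. They were lowest after 24 h, and the 48 h interval overlapped that of the control. Psmb8, the counterpart of Psmb5, had 32.7 CPM in the adult control, 19.6, 27.2 and 33.5 CPM after PHx and 43.7 CPM in P14, and its 24 h ratio was 0.599-fold (0.521 to 0.689). Psmb9, the counterpart of Psmb6, had 15.3 CPM in the adult control, 12.8, 18.0 and 24.9 CPM after PHx and 24.4 CPM in P14, which was 1.62-fold (1.36 to 1.94) after 96 h. Psmb10, the counterpart of Psmb7, stayed between 18.1 and 21.6 CPM in the adult libraries and stood at 41.7 CPM in P14, 2.04-fold (1.80 to 2.32) of the control.

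Shares of UMIs within each pair move with either partner, so both levels are to be read beside them. After 96 h, for example, Psmb8 stood at 1.02-fold (0.894 to 1.17) and Psmb5 at 1.80-fold (1.63 to 2.00) of the control. Psmb8 made up 43.3% (40.2% to 46.4%) of Psmb8 plus Psmb5 UMIs in the adult control, 22.0% (20.1% to 24.0%) after 24 h, 26.5% (24.6% to 28.4%) after 48 h, 30.2% (27.9% to 32.6%) after 96 h and 35.2% (34.1% to 36.2%) in P14. Psmb9 made up 18.0% of its pair in the adult control, 10.1%, 10.4% and 15.3% after PHx and 13.7% in P14, although its own level after 48 h and 96 h was not below the control. Psmb10 made up 19.2% of its pair in the adult control, 14.7%, 13.8% and 14.5% after PHx and 26.8% in P14. The adult control thus had the largest immune share at the chymotrypsin-like position and P14 at the trypsin-like position, while at the caspase-like position the intervals of the adult control (15.8% to 20.4%) and 96 h (13.8% to 16.9%) overlapped. Shares are of mRNA counts and not of protein.

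**Figure D4:**
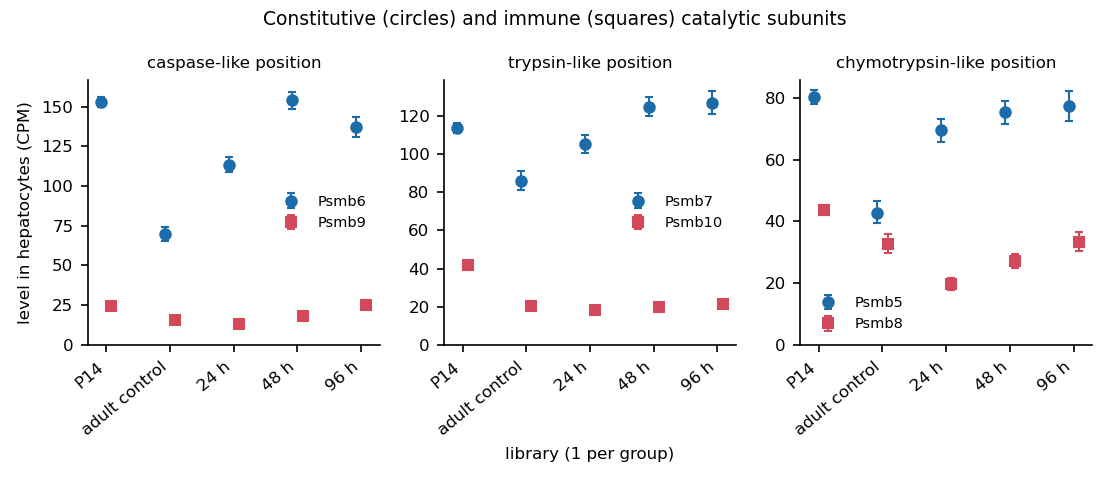
CPM in hepatocytes of the constitutive subunit (circles) and its immune counterpart (squares) at each catalytic position, 1 point per library with 95% exact Poisson intervals. The gap between the pair at the chymotrypsin-like position is narrowest in the adult control, where Psmb8 held 43.3% of the UMIs.

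Leukocytes carry much more of the immune subunits, so their signal was measured beside these values. Barcodes with at least 3 of 10 leukocyte markers held 758 to 1018 CPM of the 3 immune subunits, and Psmb8 made up 59.8% to 72.4% of its pair there. The leukocyte markers in hepatocytes summed to 119 CPM in the adult control, 66.3, 75.0 and 85.8 CPM after PHx and 25.2 CPM in P14, which is 0.466% to 1.66% of their level in leukocyte barcodes. Neutrophil markers, given above, had another order, with the adult control lowest. The immune subunits stood at 6.62% to 8.46% of their leukocyte level in the adult libraries and at 14.5% in P14. Among the 3 PHx libraries the markers and the immune sum had the same order, from 24 h up to 96 h, whereas the adult control was highest for the markers and P14 was lowest for the markers and highest for the immune sum. Leaving out the 12 to 86 hepatocytes per library with at least 3 leukocyte markers gave log2 ratios of the immune sum of -0.46, -0.06 and 0.19 after PHx and 0.65 in P14, against -0.43, -0.07, 0.22 and 0.67 with them. Genes of antigen presentation and interferon response were listed beside them. Of 12 listed, 10 passed the filter, with median log2 ratios of -0.54, -0.55 and -0.06 after PHx and -0.60 in P14, and from 48 h to 96 h all 10 were above 0 (median 0.66) and 7 were at least 1.5-fold higher. In that comparison 5340 of all 8674 genes were above 0 and 13.6% were at least 1.5-fold higher. Irf1, a transcription factor that induces the immune subunits, had 20.7 CPM in the adult control, 7.38, 6.14 and 9.90 CPM after PHx and 7.56 CPM in P14.

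The activators, which open the barrel without the 19S cap, differed from each other in direction. Psme1 and Psme2 encode the 2 chains of the interferon-inducible ring PA28 alpha/beta and lie close together on chromosome 14 (GRCm38, 55578123 to 55581529 on the plus strand and 55587441 to 55591113 on the minus strand). Psme2 had 27.6 CPM (24.8 to 30.5) in the adult control, 47.3 CPM after 24 h, 82.8 CPM after 48 h, 74.9 CPM after 96 h and 71.7 CPM in P14. The adult control lay below all others, with ratios of 1.72-fold (1.52 to 1.94), 3.01-fold (2.68 to 3.37), 2.72-fold (2.41 to 3.07) and 2.60-fold (2.34 to 2.90). In the barcodes under 5% mitochondrial UMIs the order turned, with 245 CPM of Psme2 in the adult control, 157, 163 and 212 CPM after PHx and 204 CPM in P14. Reads shared with the copy Psme2b cannot be told apart, and that gene was listed at 0.150 to 0.816 CPM. Psme1 had 74.5 CPM in the adult control, 84.4, 98.9 and 121 CPM after PHx and 101 CPM in P14. Psme3, the nuclear activator PA28 gamma, had 59.7 CPM in the adult control, 77.4, 57.7 and 49.9 CPM after PHx and 27.5 CPM in P14. Its ratio was 1.30-fold (1.19 to 1.41) after 24 h, 0.836-fold (0.754 to 0.928) after 96 h and 0.461-fold (0.424 to 0.502) in P14, with the 48 h interval (0.883 to 1.06) including 1. Psme4, the activator PA200, was below the control everywhere, at 116 CPM in the adult control, 93.6, 80.9 and 97.2 CPM after PHx and 59.8 CPM in P14. Psmf1, an inhibitor of the barrel, had 21.5 CPM in the adult control, 20.04, 20.5 and 27.5 CPM after PHx and 27.8 CPM in P14.

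Among the chaperones that assemble the barrel, Psmg4 was 2.00-fold (1.77 to 2.26), 2.09-fold (1.85 to 2.36) and 1.74-fold (1.52 to 1.99) of its control level of 26.3 CPM after PHx. Its partner Psmg3 stayed between 17.2 and 20.6 CPM in the adult libraries. Psmg1 had 11.9 CPM in the adult control, 16.7, 21.5 and 22.3 CPM after PHx and 28.6 CPM in P14, and its partner Psmg2 had 15.3, 22.3, 24.3, 26.3 and 14.9 CPM in the same order. The pair thus differed in P14, where Psmg1 was 2.40-fold (2.04 to 2.83) and Psmg2 0.971-fold (0.834 to 1.14) of the control, the latter changing sign under TMM. Of the chaperones of the 19S base, Psmd5 was 1.63-fold (1.46 to 1.82) of the control after 24 h and 0.588-fold (0.529 to 0.655) in P14. Psmd9 had 51.5 CPM in the adult control, 57.1 CPM after 24 h and 39.8 and 40.4 CPM after 48 h and 96 h. Psmd10, also known as gankyrin, had 10.5 CPM in the adult control, 16.7, 13.6 and 13.4 CPM after PHx and 9.11 CPM in P14.

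**Figure D5:**
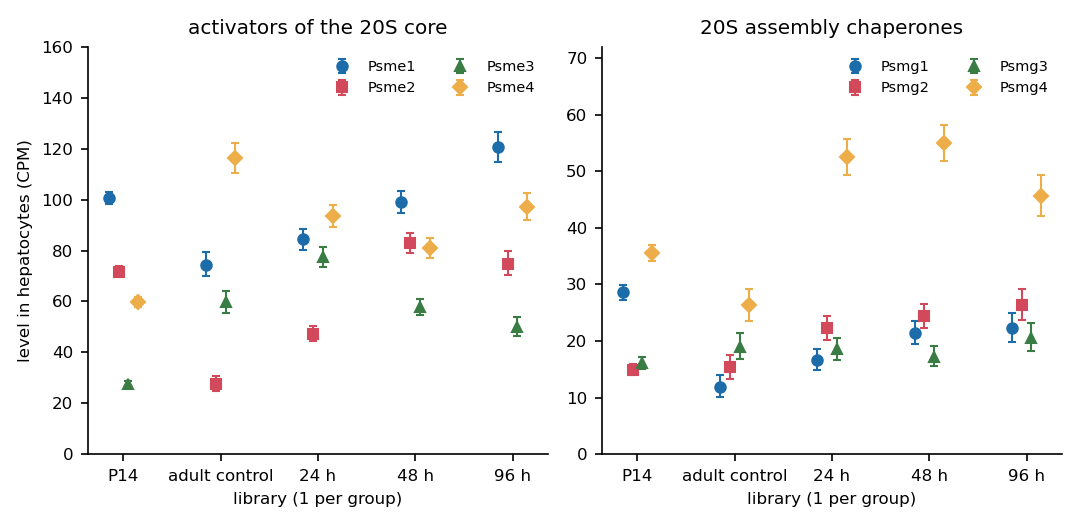
CPM in hepatocytes of the activators Psme1 to Psme4 (left) and the barrel assembly chaperones Psmg1 to Psmg4 (right), 1 point per library with 95% exact Poisson intervals. Psme2 was lowest and Psme4 highest in the adult control, and Psmg4 was highest after 48 h.

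Psmb11 had 0 UMIs in all 5 libraries, where 3 counts, taken as the limit that a count of 0 allows, are worth 0.0465 CPM in P14 and 0.225 CPM in the adult control, and the upper ends of the 2-sided exact intervals are 0.0571 and 0.277 CPM. Psma8 stayed below 1 CPM. Psmc3ip, the cofactor of meiotic recombination, had 0.375 CPM in the adult control, 5.74 CPM after 24 h, 3.70 CPM after 48 h, 1.64 CPM after 96 h and 1.36 CPM in P14.

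Other genes of the pathway were taken from lists. Of 8 proteasome partners without a Psm symbol, all passed the filter and 5, 3 and 3 were at least 1.5-fold higher after 24 h, 48 h and 96 h, against 18.3%, 16.6% and 12.8% of all genes. None of the 8 was at least 1.5-fold lower at these times (16.4%, 18.7% and 6.13% of all genes). In P14 their median was -0.20, with 5 of 8 below 0 (5619 of all 8674 genes), 1 at least 1.5-fold higher (13.3% of all genes) and 1 lower (30.8%). Adrm1, the ubiquitin receptor of the base, had 21.8 CPM in the adult control, 41.0, 42.5 and 38.9 CPM after PHx and 42.8 CPM in P14. Usp14, a deubiquitinase on the cap, had 53.7 CPM in the adult control, 93.2 CPM after 24 h, 57.3 and 58.0 CPM later and 32.2 CPM in P14, the same order as Psmd14 apart from the last 2 PHx times. Pomp, the chaperone that closes the nascent barrel, was 1.19-fold, 1.13-fold and 1.06-fold of its control level of 199.8 CPM after PHx. Of 7 upstream regulators that passed, 2, 4 and 1 were at least 1.5-fold lower after PHx (16.4%, 18.7% and 6.13% of all genes) and 0 higher, and in P14 5 were lower (30.8%). Their medians were -0.22, -0.65, -0.29 and -0.68, with Nfe2l2, which encodes the related factor Nrf2, above the control at 0.43 after 24 h and 0.36 after 96 h, and Stat3 above it at 0.13 and 0.14 after 24 h and 48 h. Nfe2l1 itself had 73.0 CPM in the adult control, 44.3, 46.3 and 45.3 CPM after PHx and 44.6 CPM in P14. These are mRNA levels set against a single control library, and a link to the core genes was not tested. Ddi2, the activating protease of Nrf1, had 285 CPM in the adult control, 216, 160 and 207 CPM after PHx and 186 CPM in P14. Substrate delivery factors such as Vcp held medians of 0.02, -0.22 and 0.05 after PHx, with 0 of 10 past 1.5-fold in either direction (12.8% to 18.3% of all genes higher, 6.13% to 18.7% lower). In P14 their median was -0.29 and 4 of 10 were at least 1.5-fold lower, beside 30.8% of all genes. Ubiquitin activation and conjugation genes held medians of 0.14 after 24 h, 0.12 after 96 h and -0.33 in P14, and after 48 h 6 of the 12 were above 0 and 6 below. After PHx 2, 1 and 1 of the 12 were at least 1.5-fold higher and 0 lower at each time (18.3%, 16.6% and 12.8% of all genes higher, 16.4%, 18.7% and 6.13% lower). In P14, 5 of the 12 were at least 1.5-fold lower and 0 higher, against 30.8% and 13.3% of all genes. Ubb, which encodes ubiquitin itself, had 215 CPM in the adult control, 327, 462 and 347 CPM after PHx and 551 CPM in P14.

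Within the libraries other than the adult control, mitosis-positive hepatocytes had 1.12-fold to 1.33-fold of the core level of non-cycling ones. Cells were mitosis-positive with UMIs of at least 3 of 28 mitosis genes at 5000 UMIs, and non-cycling with none of these and at most 1 of 29 replication genes. The summed core ratio between these cells was 1.19-fold (1.17 to 1.21) in P14, 1.12-fold (1.09 to 1.14) after 24 h, 1.19-fold (1.17 to 1.22) after 48 h and 1.33-fold (1.29 to 1.37) after 96 h. The core medians were 0.25, 0.10, 0.30 and 0.40, beside medians over all genes of 0.23, 0.13, 0.20 and 0.21, so the core genes lay near the typical gene in P14 and after 24 h and above it after 48 h and 96 h. With 4 mitosis-positive hepatocytes in the adult control no ratio is given there. Among non-cycling hepatocytes alone, the core median was 0.48 for 48 h over the adult control and -0.01 for 48 h over 24 h. Medians over all genes in these cells were -0.22 and -0.13, against -0.07 and -0.07 in all hepatocytes. By lobular position, hepatocytes in the pericentral of 3 equal groups held 0.97-fold (P14), 1.06-fold (adult control), 1.08-fold (24 h), 0.98-fold (48 h) and 1.18-fold (96 h) of the core level of the periportal group, with no common direction. The core medians were -0.05, 0.13, 0.12, -0.13 and 0.25 in that order. Medians over all genes had the same sign in each library, at -0.05, 0.07, 0.06, -0.05 and 0.13.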

How the data were processed

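The files hold, per library, whole-number UMI counts per gene and barcode, not normalized, as the authors deposited them, with 80927744 to 136110607 UMIs per library over 6794880 listed barcodes, so empty droplets are included. Per the submitters' processing notes, bcl2fastq 2.17.1.14, Cell Ranger, Seurat 3.1 and mm10 were used; the file headers name software 3.0.2. Counts were summed over hepatocytes (without the 13 mitochondrial genes) and divided by that total as CPM. UMIs come from the 3′ end and were not divided by length. Levels carry exact Poisson intervals, ratios conditional exact intervals and shares Clopper-Pearson intervals at 95%.

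Named members were fixed by role (catalytic subunits, activators, assembly factors, Psmd4, Psmd14 and Psmf1) and by rank (the 3 highest and 3 lowest core ratios against the adult control), but members and lists were chosen with earlier results of these data known, and other members and the pathway genes outside the family were named after their values were seen. Doublets were kept, and removed by Scrublet score (scanpy 1.11.5) only as an alternative, TMM factors came from edgeR 4.0.16, and alternatives in scaling, pseudocount, filters and cell limits were computed. Gene positions are from GENCODE M21 and promoters from RefSeq. The ratio code was tested on simulated data.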

Additional observations from a re-analysis of the deposited data

How the results depend on the processing

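With 1 library per group the spread between libraries could not be measured, and leaving out a replicate was not possible. No paired analysis was possible because each group has 1 library. The limits of 10% to 50% and under 5% mitochondrial UMIs and the removal of hepatocytes with 3 leukocyte markers were chosen after seeing the data. Over the 14 alternatives other than barcodes under 5% mitochondrial UMIs, the core medians kept their sign and ranged between 0.44 and 0.60 for 24 h, 0.48 and 0.78 for 48 h, 0.38 and 0.64 for 96 h, and 0.21 and 0.61 for P14. The cause of each shift below was not tested.

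With TMM, P14 moved to 0.61 (17 genes past 1.5-fold in place of 10; immune sum 1.01 in place of 0.67) and 96 h over 48 h to -0.22. Median-of-ratios factors gave P14 0.54 and its immune sum 0.93. A pseudocount of 10 CPM left 6 genes in P14 and a mitosis median of 0.22 there. A threshold of 2-fold left 2, 4, 1 and 2 core genes at 24 h, 48 h, 96 h and in P14, against 7.77%, 7.44%, 4.31% and 6.96% of all genes. Cells of 10% to 20% mitochondrial UMIs, as few as 53 per library, gave immune sums of -0.17, 0.21 and 0.63 after PHx (-0.43, -0.07 and 0.22 in the whole set) and 0.90 in P14, and a core median of 0.64 at 96 h. Free RNA subtraction gave 18 genes at 24 h, core medians of 0.78, 0.64 and 0.51 at 48 h, 96 h and in P14, and immune sums of 0.080 at 48 h and 0.83 in P14. Non-cycling cells gave 0.48 for the core and -0.26 for the immune sum at 48 h, and -0.012 for 48 h over 24 h. In these cells the median over all genes was -0.22 at 48 h and -0.13 for 48 h over 24 h. The limit of 10% to 50% left 7 genes at 96 h in place of 13.

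Barcodes under 5% mitochondrial UMIs gave core medians of -0.21, -0.32 and -0.24 after PHx and -0.46 in P14, with 0 genes past 1.5-fold at 24 h, 48 h, 96 h and in P14, -0.11 for 48 h over 24 h, 0.13 for 96 h over 48 h, and immune sums of -0.30 at 48 h and 0.29 in P14. Medians over all genes in these barcodes were -0.60, -0.56 and -0.42 after PHx and -0.26 in P14, so most genes were lower there. Reversals of single genes were looked for only among those named by role or rank and at least 1.5-fold from the control in the main set. Psma7 did not reverse. Those that did were at 24 h Psmb2 (-0.13), Psmb3 (-0.26), Psmd14 (-0.18), Psmd5 (-0.92) and Psme2 (-0.64), at 48 h Psmb2 (-0.28), Psmb3 (-0.50), Psmb5 (-0.083) and Psme2 (-0.59), at 96 h Psmb3 (-0.094), Psmb6 (-0.13), Psme1 (-0.21), Psme2 (-0.21) and Psmg2 (-0.21), and in P14 Psmb2 (-0.15), Psmb3 (-0.34), Psmb5 (-0.54), Psmb6 (-0.16) and Psme2 (-0.27).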
